A study of Mus musculus with 30 samples.

Results

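*Rpl3* and *Rpl3l*, the 2 genes that encode forms of ribosomal protein L3, were followed in mouse ventricle from birth to adulthood. All probes annotated with either symbol were taken, which gave 1 probe for each gene (2 of 6457 named genes), 2 of the 17991 probes tested and of the 45274 on the arrays that are not control rows. Both probes were above the detection limit on all 30 arrays. The pair was chosen by its signal over the control ages, where *Rpl3l* rises and *Rpl3* falls, so the control values are given as a description without a test. The mice were male FVB/B6 hybrids. Ventricles were collected on postnatal days P1, P7, P14, P30 and P60, with 3 arrays in each of 10 groups. Control mice carried the MCK-Cre transgene alone, and Sox6 KO mice carried MCK-Cre with both *Sox6* alleles flanked by loxP sites (Sox6 loxp/loxp; MCK-Cre). The muscle creatine kinase promoter drives Cre in skeletal muscle as well as in heart and gains activity around and after birth. No mice without Cre were among the samples, and no probe was named *Sox6*, so the extent of the deletion at each age was not tested on these arrays. The authors reported a reduced *Sox6* mRNA level in postnatal KO hearts by RT-qPCR.

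Ribosomal protein L3 lies in the large subunit near the peptidyl transferase centre, where peptide bonds are made. *Rpl3* is used in nearly all cells, whereas its paralog *Rpl3l* is expressed almost only in heart and skeletal muscle, and its product takes the place of RPL3 in part of the ribosomes of these tissues. *Sox6* encodes an SRY-box transcription factor that acts in cardiac and skeletal muscle. The whole ventricle was measured, so fewer cells of a type and less RNA per cell cannot be told apart.

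In the GRCm38.p6 assembly *Rpl3* spans chr15:80077781-80083406 and *Rpl3l* spans chr17:24727826-24736143. RefSeq also lists 2 *Rpl3* pseudogenes on chromosome X, and whether the *Rpl3* probe binds their transcripts was not tested. The 250 bases before the annotated *Rpl3l* start (RefSeq, GRCm38.p6, chr17:24727576-24727825, plus strand) are shown because the comparison of genotypes asks about a transcription factor, with matches to the searched motifs in capitals.
Rpl3l upstream window: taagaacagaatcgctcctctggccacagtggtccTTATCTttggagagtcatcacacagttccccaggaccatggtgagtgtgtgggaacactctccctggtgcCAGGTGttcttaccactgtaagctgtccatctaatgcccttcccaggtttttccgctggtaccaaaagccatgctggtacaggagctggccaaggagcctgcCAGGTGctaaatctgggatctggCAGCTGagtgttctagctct
Both strands were searched for 3 motifs, whose matches do not overlap here. The SOX motif AACAAT had no match in this window, and 9.42% of the 32851 RefSeq windows of the same length hold it. The E-box CANNTG matched at 3 places, starting 145, 43 and 20 bases before the start, and 66.2% of all windows hold an E-box. The GATA motif AGATAA matched once on the minus strand, 215 to 210 bases before the start (9.99% of windows). A second annotated *Rpl3l* start held 1 E-box and none of the other motifs in its 250 bases. A match or its absence describes these letters only.

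In control ventricle *Rpl3l* was higher at each later age, and *Rpl3* became lower later and by less. The log2 signal of *Rpl3l*, quantile normalized, was 8.54, 8.34 and 8.32 on the 3 arrays of P1, and 10.88, 10.95 and 11.05 at P7. It was 12.71, 12.81 and 12.72 at P14, then 13.73, 13.61 and 13.65 at P30 and 13.78, 14.05 and 13.95 at P60. The arrays of each control age lay above those of every earlier age. From P1 to P60 the log2 change was 5.53 (SE 0.10), or 46.1-fold.

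The log2 signal of *Rpl3* in control was 14.14, 13.66 and 13.81 at P1 and 13.90, 13.98 and 14.02 at P7, so these ages overlapped. It was 13.63, 13.46 and 13.55 at P14, 12.54, 12.77 and 12.69 at P30 and 12.66, 12.48 and 12.42 at P60. The arrays of P30 and P60 overlapped each other and lay below those of every earlier age. The log2 change from P1 to P60 was -1.35 (SE 0.09), which is 2.55-fold lower, so the *Rpl3* transcript remained well above the detection limit in the adult. Levels of different probes are not comparable on these arrays, and the signals do not say which of the 2 transcripts was the more abundant.

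**Figure D1:**
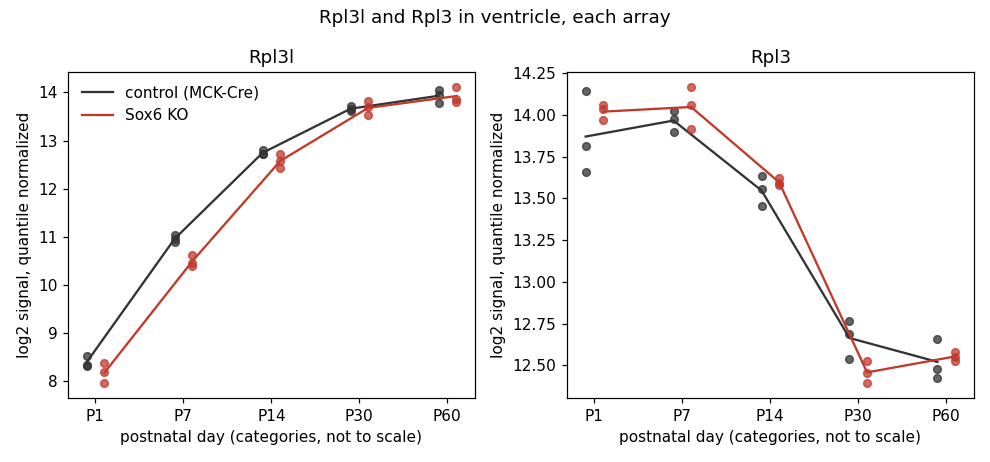
Log2 signal (quantile normalized, vertical axis) of *Rpl3l* and *Rpl3* on each of the 30 arrays by postnatal day. Points are arrays, lines join the means of 3 arrays, black is control and red is Sox6 KO. *Rpl3l* climbed from P1 onward in both genotypes, while *Rpl3* was level until P7 and had its largest drop between P14 and P30. That interval is longer than the one from P7 to P14, so the size of the drop is not its rate per day.

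On the log2 scale the rise of *Rpl3l* in control ran ahead of the fall of *Rpl3*. In control, *Rpl3l* had covered 46.3% of its P1 to P60 log2 change by P7, 78.6% by P14 and 95.1% by P30. *Rpl3* was 0.10 above its P1 level at P7, and had covered 23.96% of its log2 change by P14 and 89.4% by P30. On the linear scale *Rpl3l* had reached 42.8% of its gain by P14, and *Rpl3* 33.1% of its loss, so the lead of *Rpl3l* at P14 is narrower without the logarithm. At P7 the linear shares were 10.9% and -11.3%. By P30 the linear order was reversed, with 82.7% for *Rpl3l* and 93.3% for *Rpl3*. In Sox6 KO the linear shares at P14 were 38.2% and 39.8%, so the lead depended on the scale.

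Sox6 KO ventricle gave the same intervals in samples whose values are not part of the control pattern that chose the pair, though earlier results of these arrays were known as well. *Rpl3l* was 8.38, 8.19 and 7.97 at P1, 10.63, 10.47 and 10.39 at P7 and 12.42, 12.72 and 12.58 at P14. It was 13.69, 13.52 and 13.82 at P30 and 13.86, 13.79 and 14.12 at P60. Only P30 and P60 overlapped. *Rpl3l* rose 4.98-fold from P1 to P7 (log2 change 2.32, SE 0.10, adjusted p = 3.603e-15, limma), 4.23-fold from P7 to P14 (2.08, adjusted p = 3.149e-14) and 2.15-fold from P14 to P30 (1.10, adjusted p = 3.498e-09). The step from P30 to P60 did not pass (0.24, adjusted p = 0.0999). With the call set at 1.5-fold or more and an adjusted p under 0.01, 5.50%, 5.52%, 8.39% and 2.11% of all probes were called in these 4 intervals. From P1 to P60 the change was 53.6-fold (5.74, SE 0.10, adjusted p = 3.225e-25), where 22.4% of probes were called. It was the highest log2 change of the 17991 probes, and held that rank under the other normalizations and filters except with negative-control background correction, where it was the second. With no normalization between arrays the P30 to P60 step was -0.22, and the P60 arrays were dimmer than those of P30.

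*Rpl3* in Sox6 KO was 14.06, 14.03 and 13.97 at P1 and 14.06, 13.92 and 14.17 at P7. It was 13.62, 13.58 and 13.59 at P14, 12.52, 12.39 and 12.45 at P30 and 12.52, 12.55 and 12.58 at P60. The first 2 ages overlapped each other, P14 stood apart below them, and P30 and P60 lay close together below P14. From P1 to P7 the log2 change was 0.03 (adjusted p = 0.8632, limma). *Rpl3* then fell 1.37-fold from P7 to P14 (-0.45, SE 0.09, adjusted p = 3.732e-04), under the 1.5-fold limit (17.2% of probes passed 0.01 alone), and 2.20-fold from P14 to P30 (-1.14, SE 0.09, adjusted p = 1.473e-10). P30 to P60 gave 0.10 (adjusted p = 0.4984). The change from P1 to P60 was 2.77-fold lower (-1.47, adjusted p = 7.521e-14).

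The question whether the switch needs Sox6 is addressed by the genotypes at each age. *Rpl3l* differed between them most at P7, where all 3 Sox6 KO arrays (10.39 to 10.63) lay below all 3 control arrays (10.88 to 11.05), a gap of 0.26. The KO mean was 1.38-fold lower (log2 difference -0.47, SE 0.10, 95% interval -0.68 to -0.26, adjusted p = 0.0051, limma). At an adjusted p under 0.01 alone 2.88% of probes passed at P7, 1.33% also reached 1.5-fold, which *Rpl3l* did not, and 12.4% had every KO array below every control array. The adjusted p moved over 0.01 with median scaling (0.0492) or negative-control background correction (0.0381), and when 1 array was left out (control replicate 2, 0.0205, or 3, 0.0351; KO replicate 2, 0.0267, or 3, 0.0338).

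At the other ages the genotypes overlapped in *Rpl3l* and no difference passed, while 8.73%, 1.33%, 3.50% and 2.38% of all probes passed 0.01 at P1, P14, P30 and P60. The log2 difference, KO minus control, was -0.22 at P1 (95% interval -0.43 to -0.01, adjusted p = 0.1521, limma) and -0.17 at P14 (-0.38 to 0.04, adjusted p = 0.5328). It was 0.02 at P30 (-0.19 to 0.23, adjusted p = 0.9547) and -0.01 at P60 (-0.22 to 0.21, adjusted p = 0.9876). For scale, the rise from P1 to P60 in KO ventricle was 5.74. The P60 interval is per probe and not adjusted, and the extent of the deletion was not tested on these arrays. The mean difference over the 5 ages was -0.17 (95% interval -0.26 to -0.08, adjusted p = 0.0111), where 9.27% of probes passed 0.01. That p fell under 0.01 without 1 of 6 arrays, namely control P60 replicate 1 (0.0068) and KO P1 replicate 1 (0.0032), P7 replicate 1 (0.0079), P14 replicate 2 (0.0070), P30 replicate 3 (0.0071) or P60 replicate 3 (0.0040). It rose to 0.1580 without replicate 2 and 0.0539 without replicate 3 of every group.

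Whether the *Rpl3l* difference itself varied with age was tested, and did not pass (limma's F = 3.60, adjusted p = 0.0926, where 6.24% of probes passed 0.01). The P7 difference is thus not shown to be larger than those at other ages. The P1 to P60 change in KO exceeded that in control by 0.21 (SE 0.15, 95% interval -0.09 to 0.51, adjusted p = 0.3883), where 3.32% of probes passed 0.01 and 9.47% passed 0.05.

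*Rpl3* showed no difference between genotypes that passed at any age. The log2 difference was 0.15 at P1 (95% interval -0.04 to 0.33, adjusted p = 0.2864, limma), 0.08 at P7 (-0.10 to 0.27, adjusted p = 0.7644) and 0.05 at P14 (-0.14 to 0.23, adjusted p = 0.8945). At P30 the KO arrays (12.39 to 12.52) lay just below the control arrays (12.54 to 12.77), with a difference of -0.21 (-0.39 to -0.02, adjusted p = 0.1906); 24.1% of probes had arrays that did not overlap at that age. With median scaling the P30 difference was -0.39 (adjusted p = 0.0164), and without control P1 replicate 1 the P1 difference was 0.29 (adjusted p = 0.0139) and without replicate 2 it was 0.04 (adjusted p = 0.8472), all over 0.01. At P60 the difference was 0.03 (-0.15 to 0.22, adjusted p = 0.9140) and over all ages 0.02 (-0.06 to 0.10, adjusted p = 0.7928). The age dependence did not pass either (adjusted p = 0.2510), and the P1 to P60 change differed by -0.12 (-0.38 to 0.14, adjusted p = 0.6278).

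**Figure D2:**
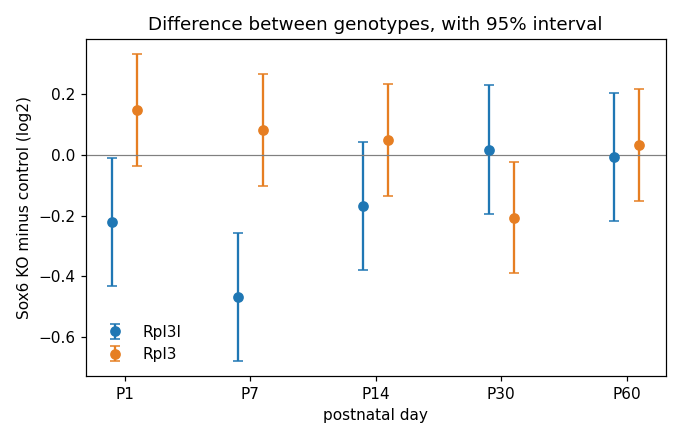
Log2 difference, Sox6 KO minus control, of *Rpl3l* (blue) and *Rpl3* (orange) at each age, from 3 arrays against 3, with bars for the 95% interval. The *Rpl3l* interval at P7 ran from -0.68 to -0.26, and both genes lay near 0 at P60.

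Expressed in time, the 3 KO arrays of P7 fell at day 6.21, 5.84 and 5.66 on the straight line that joins the control means of *Rpl3l* at P1 and P7 (log2 scale). Their mean was day 5.90 ± 0.28 (SD, n = 3), 1.10 days behind their age. The KO arrays of P14 fell at day 13.3 ± 0.58 (SD, n = 3) on the control line from P7 to P14. These days are a description that takes the control line as exact. The KO mean was also below control at P1 (log2 difference -0.22, adjusted p = 0.1521, limma). The days thus do not measure how fast *Rpl3l* rose in KO.

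Other developmentally regulated probes differed at P7 too. In control, 323 probes rose at least 2-fold from P1 to P14 at an adjusted p under 0.01. The fold change does not use the P7 arrays, but the adjusted p rests on a spread shared by all groups. Of these probes, 72 were lower and 10 higher in KO at P7 (adjusted p under 0.05, limma), with a median difference of -0.22. *Rpl3l* is one of the 323 and ranked 50 from the lowest. Of 291 probes that fell at least 2-fold, 8 were lower and 67 higher, with a median of 0.14. Over all probes 2.37% were lower and 3.01% higher, with a median of 0.00. The lower signal of *Rpl3l* at P7 thus stood among many such differences, and whether it differs from theirs was not tested.

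Some listed markers of several cell types differed between the genotypes at P7. Of 6 measured atrial markers of 9 listed, 3 were higher in KO and none lower at an adjusted p under 0.05 (limma). The higher ones were *Myl7* (2.31), *Myl4* (2.19) and *Nppa* (1.38 on the log2 scale). The differences of the 6 ran from -0.72 to 2.31, with a median of 0.785. The summed intensity of the 6 ran from 10509 to 23642 in KO against 6393 to 7383 in control. At P1 the same sum was 100449 to 108296 in KO and 40832 to 92715 in control, so it fell from P1 to P7 in both genotypes. The authors count *Nppa* among fetal type genes. Whether the higher signal of these genes came from atrial cells was not tested. Of 12 measured ventricular cardiomyocyte markers of 13 listed, 1 was lower at P7 and none higher, and their sums overlapped (295091 to 304297 in KO, 281858 to 320813 in control). Sums were lower in KO at P7 for endothelial (2 of 9 markers lower, 13618 to 15566 against 17248 to 17464), fibroblast (2 of 8 lower, 21724 to 22574 against 24314 to 30601) and macrophage markers (1 of 5 lower, 1473 to 1537 against 1816 to 2329). Red cell markers were higher in 1 of 4 (*Slc4a1*, 1.13), and the lowest difference of the 4 was -0.229. Their sums were higher in KO (94324.5 to 99161.5 against 84515.5 to 93768). Over all probes at P7, 2.37% were lower and 3.01% higher in KO at the same threshold. For single probes, 12.4% had every KO array below every control array at that age. Every measured marker of these lists was detected on all P7 arrays. Only 1 of 13 skeletal muscle markers was measured (*Myh8*). The part of these cells in the *Rpl3l* difference was not tested.

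The balance of the pair was described as log2 *Rpl3l* minus log2 *Rpl3* on each array, relative to the mean of control P1. In control it was 2.47 ± 0.03 (SD, n = 3) in the P7 ventricles, then 4.67 ± 0.14 at P14, and came to 6.47 ± 0.17 by P30 and 6.88 ± 0.25 by P60. In Sox6 KO it started from -0.37 ± 0.16 (SD, n = 3) on P1, reached 1.92 ± 0.19 by P7 and 4.45 ± 0.17 by P14, and was 6.69 ± 0.13 and 6.84 ± 0.15 in the P30 and P60 ventricles. The KO arrays lay below the control arrays at P1 and P7 and overlapped them at P14, P30 and P60. At P1 the genotypes overlapped in each gene taken alone. For single probes such a separation is common at P7, where 12.4% had every KO array below every control array. The share at P1, and that for a difference of 2 probes, are not given here. The difference in balance was not tested. Over the whole course the ratio of the 2 signals changed 118-fold in control and 148-fold in KO, and most of that came from *Rpl3l*.

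**Figure D3:**
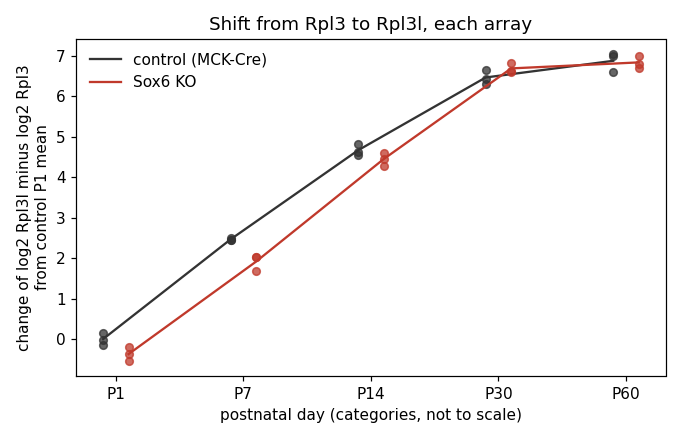
Change of log2 *Rpl3l* minus log2 *Rpl3* from the control P1 mean (vertical axis) on each array by postnatal day, black for control and red for Sox6 KO, with lines through the means of 3 arrays. The means ended at 6.88 in control and 6.84 in KO, with the KO means lower at P1 and P7.

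The other ribosomal protein genes declined with age as well, though on another schedule than *Rpl3*. Of 36 measured large subunit genes of 48 listed, *Rpl3* included, 33 were lower and none higher at P60 than at P1 in Sox6 KO (adjusted p under 0.05, limma), with a median log2 change of -0.67 against 0.01 over all probes, of which 28.6% were lower and 29.9% higher. All 20 measured small subunit genes of 35 listed were lower, with a median of -0.76. *Rps4x* (-1.91), *Rpl15* (-1.59) and *Rps23* (-1.55), structural proteins of the 2 subunits, fell by more than *Rpl3* (-1.47), which was the fourth of the 56.

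Between P14 and P30 *Rpl3* had the lowest change of these 56 genes in KO (-1.14), followed by *Rpl29* (-0.68) and *Rps9* (-0.64), and the median was -0.12. It held the first place under every normalization and filter run. In control, given as a description, it was also first in that interval (-0.88, next *Rpl29* at -0.64, median -0.07). From P1 to P7 in KO, 11 large subunit genes were lower (13.4% of all probes were) and *Rpl3*, at 0.03, stood 52 of 56 from the lowest. From P7 to P14, 23 of the 36 were lower (13.4% of all probes) and *Rpl3* was 20 of 56. In the interval from P14 to P30, 12 were lower and 5 higher, where 36.7% of all probes passed in either direction. Ribosomal protein genes have many near-identical pseudogenes, and whether these probes bind their transcripts was not tested. Between genotypes at P7, none of the 36 large subunit genes passed, and 2 of 20 small subunit genes were higher in KO, *Rps4x* (0.60, adjusted p = 0.0197) and *Rps9* (0.40, adjusted p = 0.0301). Over all probes 2.37% were lower and 3.01% higher at that age.

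**Figure D4:**
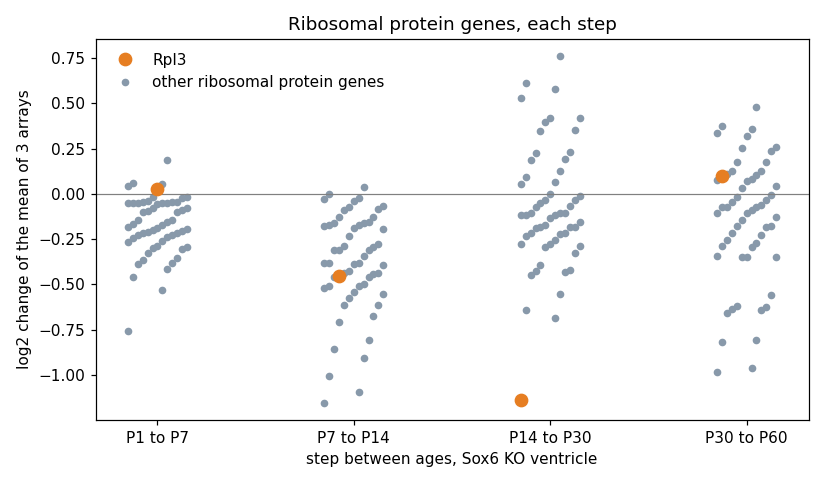
Log2 change of the mean of 3 arrays in Sox6 KO ventricle over each interval between ages, for 56 ribosomal protein genes (points; the spread along the horizontal axis only separates them). *Rpl3* (orange) stood at 0.03 from P1 to P7 and was the lowest point, at -1.14, from P14 to P30.

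Of 11 listed ribosomal protein paralogs 5 were measured, and *Rpl3l* was the only one of these with a rise that passed from P1 to P60. From P1 to P60 in Sox6 KO, *Rps27l*, the paralog of *Rps27*, had a log2 change of -0.36 (limma, adjusted p = 4.723e-04). *Rpl7l1* (-0.07, adjusted p = 0.5695), *Rpl22l1* (-0.10, adjusted p = 0.4960) and *Rpl36al* (-0.07, adjusted p = 0.5025) did not pass. *Grwd1*, whose product is a chaperone that delivers newly made RPL3 to the pre-ribosome, gave -0.04 over the same ages (adjusted p = 0.7472), while *Rpl3* fell.

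Genes that build ribosomes moved both ways. Of 56 measured of 85 listed, 22 were lower and 14 higher from P1 to P60 in KO (adjusted p under 0.05, limma), with a median of -0.07, against 28.6% and 29.9% of all probes. The nucleolar proteins *Nop58* (-1.22) and *Npm1* (-0.89) led the falls, and *Polr1a*, the largest subunit of RNA polymerase I (0.85), and *Utp6*, of the small subunit processome (0.69), the rises. With median scaling, which moved the median of all probes by 0.14, the counts were 34 and 6. Of 44 translation factors, 19 were lower and 11 higher against the same shares, among them the poly(A)-binding protein *Pabpc1* (-1.84) and the cap-binding inhibitor *Eif4ebp1* (-1.78) against the cap-binding protein *Eif4e3* (1.65) and the elongation factor *Eef1a2* (2.02).

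*Eef1a1* and *Eef1a2*, the ubiquitous and the muscle and nerve form of the elongation factor that brings aminoacyl-tRNA to the ribosome, are a second pair in the translation machinery. The log2 change of *Eef1a1* was -0.15, -0.38 and -1.17 over P1 to P7, P7 to P14 and P14 to P30 in KO (adjusted p = 0.1669, 3.503e-04 and 3.212e-12, limma). *Eef1a2* rose by 0.71, 0.85 and 0.75 in the same intervals (adjusted p = 1.290e-05, 1.010e-06 and 3.763e-06). As with *Rpl3*, the falling member had its largest step from P14 to P30, which is also the longest of these intervals. *Eef1a2*, like *Rpl3l*, rose in the first week, but its steps were of similar size while those of *Rpl3l* became smaller. These are steps per interval and not rates per day. Neither passed between genotypes at P7 (-0.15, adjusted p = 0.3107, and 0.01, adjusted p = 0.9908), while over the mean of the 5 ages *Eef1a1* was lower in KO (-0.15, adjusted p = 0.0026) and *Eef1a2* did not pass (0.01, adjusted p = 0.9040).

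Of 17 listed pairs of a perinatal or ubiquitous form and an adult striated muscle form, 13 had both members measured, the elongation factors among them. In 8 of the 13 the first fell and the other rose from P1 to P60 in KO (adjusted p under 0.05, limma), and in 6 of 13 in control, where 27.2% of all probes were lower and 27.6% higher. The myosin heavy chains *Myh7* (-3.40) and *Myh6* (0.86), the cytochrome oxidase subunits *Cox8a* (-1.32) and *Cox8b* (1.27) and the enolases *Eno1* (-1.83) and *Eno3* (0.87) were among them, and none of these adult forms rose as far as *Rpl3l*. In 2 pairs the adult form rose without a fall of the other, *Pygm* (1.48) with a rise of *Pygb* (1.28) and *Hk2* (2.37) with *Hk1* at -0.004. In 2 pairs the other form alone fell, and in the adenine nucleotide carriers both fell (*Slc25a5* -0.68, *Slc25a4* -0.93). Between genotypes, 12 of 16 measured adult forms had a KO mean below control at P1, where 51.8% of all probes did, with a median of -0.20, and 6 were lower at an adjusted p under 0.05 (7.92% of all probes). At P7 12 of 16 were again below (50.8% of all probes), with a median of -0.12, and none passed. At P14, P30 and P60 the count below control was 8, 5 and 11 of 16, with medians of -0.003, 0.049 and -0.053. The shares of all probes were then 51.1%, 49.6% and 50.5%.

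Over the 10 group means, the genes whose profile was most like that of *Rpl3l* among 1804 compared were *Pde4dip*, the scaffold myomegalin (Pearson's r = 0.996), *Ly6a*, a surface protein (0.993), *Cmya5*, the costamere protein myospryn (0.993), *Eif4e3* (0.993) and *Twf2*, an actin-capping twinfilin (0.992), with the next gene also at 0.992. For *Rpl3* they were the growth factor midkine *Mdk* (0.997), *Gask1b* (0.994), *Fnbp1l* (0.993), *Maged2* (0.993) and fibronectin *Fn1* (0.991). These are descriptions over ages that share arrays and a normalization. *Rpl3l* and *Rpl3* had r = -0.84 with each other.

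Arrays of a group correlated at 0.983 to 0.996. The detection limit ran from 103 to 139 intensity units and 13991 to 17948 probes were above it, with the fewest at P60. Chip and position were not used here, so a batch by chip cannot be told apart from the groups, and the number of arrays limits the precision.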

How the data were processed

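Total RNA of whole ventricle was hybridised to Illumina mouse bead arrays. The authors exported signal intensities without normalization between arrays and deposited them on the linear scale, and also deposited a filtered, quantile normalized intensity table (limma, version not given in the sources used here). Detection p-values were empty. A probe was kept if 1 or more groups had all 3 of their arrays above the negative controls' mean plus 2 SD (936 controls, 17991 probes kept), log2 transformed and quantile normalized without background correction. Negative controls were read from their range of IDs. Limma 3.58.1 in R 4.3.3 was fitted with 1 mean per group (20 residual and 6.72 prior degrees of freedom), with two-sided p-values adjusted by Benjamini and Hochberg over all probes. The fit was tested on simulated data. Intervals are per probe and not adjusted. Replicates are separate samples per the labels. Whether each array is a separate animal is not given plainly in the sources used here, so p-values measure the spread between arrays. The genes, the lists (highest probe per gene) and the rule for named genes (all paralogs, the 2 largest changes each way of a list, the 5 most alike profiles) were chosen with earlier results of these data known. Names came from the platform annotation and supplementary gene tables (6615 of the probes tested). Columns of samples outside the 10 groups numbered 0.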

Additional observations from a re-analysis of the deposited data

Results flagged for a closer look

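Of 47 genes examined, 30 of them members of the isoform pairs, 4 pair members changed from P1 to P60 by different amounts in the 2 genotypes (adjusted p under 0.05 for the difference of the changes, limma), which 9.47% of all probes did. The partners of *Fabp3* and *Cpt1b* were not measured. *Slc2a1*, the ubiquitous glucose transporter, differed by -1.84 on the log2 scale (adjusted p = 9.577e-05), with a change of 0.10 in control and -1.74 in KO. *Fabp3*, the heart fatty acid-binding protein, differed by 0.82 (adjusted p = 0.0011), with -0.14 in control and 0.69 in KO. *Cpt1b*, the muscle form of carnitine palmitoyltransferase, differed by 0.56 (adjusted p = 0.0475), with 0.43 and 0.98. *Ckb*, brain creatine kinase, differed by -0.52 (adjusted p = 0.0278), with -1.38 and -1.90. Groups of 3 arrays are too small for a test of single outlying arrays.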

How the results depend on the processing

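The number of arrays limits all values, and differences near 0 have no stable sign. Of the rises and falls with age in Sox6 KO, those that passed kept their direction and side of the threshold under each alternative, except *Rpl3* from P7 to P14 without replicate 3 of every group (range without replicates or arrays -0.517 to -0.387). Their sizes changed by over 1.5-fold only with no normalization, where *Rpl3l* was 1.41 from P7 to P14 and 4.87 from P1 to P60 (29.2-fold) and *Rpl3* was -2.58 from P1 to P60 (5.98-fold). *Rpl3* from P7 to P14 was then -0.997. The lower *Rpl3l* of KO at P7 kept its direction throughout but missed 0.01 with median scaling (-0.383), negative-control background correction (-0.488) and no normalization (-0.357, adjusted p = 0.5201, an alternative chosen after seeing the data), and ranged from -0.571 to -0.373 when replicates or arrays were left out, with adjusted p from 0.0056 to 0.1260. Its mean over the ages passed 0.01 with median scaling (-0.215) and no normalization (-0.314), and ranged from -0.189 to -0.147 on leaving out. The replicate numbers did not pair the samples (correlation of deviations -0.231 to 0.105, 1 of 15 pairs over 0.1), and the replicate block changed no call of *Rpl3* or *Rpl3l*, with the P7 difference of *Rpl3l* at -0.468 (adjusted p = 0.0076) and the number of called probes at 0.989 to 1.019 times that without it. With the block the pairs that switch in control went from 6 to 7, and 3 of the ribosome biogenesis counts moved by 1 gene.

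Signs near 0 turned as follows. With median scaling *Rpl3l* at P30 was -0.059, and *Rpl3* was -0.041 at P14, -0.128 at P60, -0.047 over all ages and -0.083 from P1 to P7 in KO. With cyclic loess *Rpl3l* at P60 was 0.064, and *Rpl3* was -0.072 at P60, -0.007 over all ages and -0.111 from P1 to P7. In the authors' processed table *Rpl3l* at P60 was 0.006. With no normalization *Rpl3l* was -0.123 at P30 and -0.218 from P30 to P60, and *Rpl3* was -0.248 at P14, -0.229 at P60, -0.146 over all ages, -0.113 from P1 to P7 and -0.429 from P30 to P60. Leaving out replicates or arrays gave -0.060 to 0.095 for *Rpl3l* at P30 and -0.104 to 0.121 at P60, and for *Rpl3* -0.030 to 0.115 at P60, -0.000 to 0.048 over all ages and -0.059 to 0.101 from P1 to P7. None of these passed 0.01. With no normalization *Rpl3* at P30 was -0.45 (adjusted p = 0.2228).

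Values without a test moved by more than 1 SD with median scaling (*Rpl3l* in control from P1 to P60, 5.317), with negative-control background correction (5.956, and the balance of the pair at 7.307 in control P60, 2.278 in KO P7 and 7.265 in KO P60) and with cyclic loess (KO P60, 7.113). Leaving out replicates gave 5.438 to 5.670 for the control rise and 6.746 to 6.984 for the balance in KO P60. The counts of lower ribosomal protein genes stayed within 1.5 times in the 10 alternatives run for them (not run with no normalization or without single arrays), and the 2 small subunit genes higher in KO at P7 became 0 to 3.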
